A study of Mus musculus with 12 samples.

Results

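The genes described are 33 enzymes, regulators and carriers of cholesterol and fatty acid synthesis. They were chosen by name from textbook pathways, with earlier results of these data known. They stand among 19938 gene symbols read by a probe set of their own on a mouse whole-transcript array. A gene entered where a probe set carried its symbol and no other, which gave 36 probe sets: Acaca, Fdft1 and Idi1 had more than 1, and the rest had 1 each. The 12 arrays form 2 sets of sorted cells from dorsal skin, with 4 groups of 3 arrays. The bulge set holds hair follicle stem cells of Per1-Venus mice aged 18 to 19 days, in which the fluorescent protein Venus reports the clock gene Per1. These cells, CD34+ with bright alpha6 integrin, were divided by Venus, bright in the clock-positive and dim in the clock-negative cells, each sample being a pool of about 20 mice. Because the source label of the clock-negative samples names the Venus-high gate as well, titles and design text decided the groups. The basal interfollicular epidermis (IFE) set holds Bmal1 KO cells and wild-type (WT) cells from mice 1 year old, with 5 mice per sample. The titles call the cells epidermal stem cells from KO mice. No promoter driving the knockout is given in the sources used here. Each sample is a pool, so the spread between 3 arrays is that between pools, and nothing in the labels says whether the pools were sorted on separate days. The bulge comparison asks how stem cells with an active Per1 reporter differ from those without it, and the epidermis comparison asks what changes in basal cells that lack the clock activator BMAL1.

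Cholesterol is built from acetyl-CoA through mevalonate, isoprenoid diphosphates and squalene, which is folded into lanosterol and trimmed to cholesterol. Fatty acids are built by acetyl-CoA carboxylase and fatty acid synthase, lengthened by ELOVL elongases and desaturated by SCD and FADS enzymes. The transcription factors SREBP2 and SREBP1, encoded by Srebf2 and Srebf1, drive many genes of the sterol and fatty acid branches, and INSIG1 holds their precursors in the endoplasmic reticulum when sterols are plentiful. In skin these lipids serve cell membranes, the sebum of the sebaceous gland and the water barrier of the outer epidermis, where ELOVL4 makes the longest ceramide chains and ABCA12 loads lipid into lamellar granules.

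Promoter windows of 250 bases upstream of the annotated start, from RefSeq on assembly GRCm38.p6, could be matched to 25 of the 33 genes. The E-box CACGTG, bound by BMAL1 with its partner CLOCK, stood in 5 of these 25 windows (20.0%), those of Hsd17b7, Sc5d, Dhcr7, Insig1 and Elovl5, against 6.86% of 27025 genes. The letters CCAAT, bound by NF-Y, were found in 19 of 25 windows (76.0%), against 37.5% of all genes. One spelling of the sterol response element, TCACNCCAC, occurred in 1 window, that of Hmgcs1 (4.0%, against 1.22% of all genes). Each motif was searched on both strands, the sterol element ends in the letters CAC with which the E-box begins so that the 2 can overlap, and a match is a description of the window and not a bound site. The windows below belong to 3 genes with higher values in clock-positive cells under every scaling described further on, of which Insig1 and Elovl5 hold an E-box and Cyp51 does not. Lss, also higher under every scaling, holds none either, and the other E-box genes Hsd17b7, Sc5d and Dhcr7 were called on deposited values and not after cyclic loess. For Fads1 and Scd2, the remaining genes higher under every scaling, no window could be matched. Sequences run 5′ to 3′ along the gene's strand; capitals mark the E-box and CCAAT, which reads ATTGG where it lies on the other strand.
Insig1 (chr5:28071162-28071411, plus strand): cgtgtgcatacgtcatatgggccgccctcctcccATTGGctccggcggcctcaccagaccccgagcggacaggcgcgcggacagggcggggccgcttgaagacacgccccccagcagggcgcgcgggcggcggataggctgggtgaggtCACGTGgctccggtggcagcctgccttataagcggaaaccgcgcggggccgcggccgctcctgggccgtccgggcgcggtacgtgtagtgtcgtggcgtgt
Elovl5 (chr9:77917115-77917364, plus strand): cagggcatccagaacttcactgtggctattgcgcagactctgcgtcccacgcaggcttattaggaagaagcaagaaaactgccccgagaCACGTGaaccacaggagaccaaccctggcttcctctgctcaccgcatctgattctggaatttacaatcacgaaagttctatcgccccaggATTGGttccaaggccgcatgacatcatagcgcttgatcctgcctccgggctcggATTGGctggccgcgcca
Cyp51 (chr5:4104698-4104947, minus strand): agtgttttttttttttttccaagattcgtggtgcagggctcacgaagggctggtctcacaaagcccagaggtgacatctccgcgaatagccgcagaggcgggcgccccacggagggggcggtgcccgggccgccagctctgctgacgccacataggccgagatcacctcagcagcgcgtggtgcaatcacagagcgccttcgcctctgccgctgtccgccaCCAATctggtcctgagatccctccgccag
The E-box begins 101 bases upstream of the start in Insig1 and 161 bases upstream in Elovl5. A CCAAT box lies 29 bases upstream in Cyp51, 216 bases upstream in Insig1, and 71 and 17 bases upstream in Elovl5.

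All values are log2 intensities, and a level is set only against the same gene's level in the same set, because the 2 sets appear to have been normalized apart. The main axis of variation separated the sorts in the bulge set (83.7% of the variance) and did not separate the genotypes in the epidermis set (48.2%). On the second axis of the epidermis set the genotypes did separate, with KO arrays at 10.5, 14.7 and 13.5 and WT arrays at −17.5, −10.6 and −10.6. Per1, whose reporter defined the sort, read 9.77, 9.72 and 9.81 in clock-positive cells and 9.36, 9.20 and 9.19 in clock-negative cells. Nr1d1, a direct target of BMAL1, fell in KO cells, with values of 8.63, 8.39 and 8.44 in KO and 12.28, 12.52 and 12.60 in WT (log2 change −3.98 ± 0.12 SE, adjusted p = 1.08e-05), and Per3 fell by 2.69. Arntl, the gene of BMAL1 itself, read 9.85, 9.60 and 9.55 in KO and 9.27, 9.47 and 9.34 in WT (adjusted p = 0.53); the deleted stretch is not given in the sources used here, so this probe set does not check the label. Per1 (0.51, and 0.30 after the cyclic loess scaling described below), Dbp (0.28, and 0.06) and Arntl (0.16, and −0.05) were the 3 of 5 clock genes called higher in clock-positive cells as deposited. After cyclic loess Per1 was called higher and Per3 lower (−0.27, adjusted p = 0.00376, against −0.06 as deposited). Nr1d1 was called between the sorts on neither scale (0.08, adjusted p = 0.298, and −0.11, adjusted p = 0.127). Cd34, whose protein was part of the bulge sort, lay between 9.44 and 10.98 on the bulge arrays. It was higher in clock-positive than in clock-negative cells (1.45 ± 0.06 SE, adjusted p = 2.8e-07, and 1.26 after cyclic loess). On the epidermis arrays Krt5 and Krt14 lay at 13.47 or above. Cd34 averaged 6.49 in KO and 6.60 in WT, below the limit of 6.83 under which genes were left out there as dim. In clock-positive cells 8 of 8 bulge stem cell markers, 3 of 6 basal keratinocyte markers and 3 of 3 endothelial markers were called higher. Called lower were 6 of 9 markers of differentiated keratinocytes, 6 of 6 of T cells, 4 of 4 of Langerhans and myeloid cells and 3 of 3 of melanocytes. Over all genes 45.2% were called higher and 18.3% lower as deposited, and 25.3% and 15.8% after cyclic loess. Averaged over 9 genes, differentiated keratinocyte markers lay at 10.26 to 10.29 in clock-positive and 11.14 to 11.18 in clock-negative cells. The T cell mean lay at 7.40 to 7.46 in clock-positive and 8.42 to 8.57 in clock-negative cells, and the endothelial mean at 8.75 to 8.77 in clock-positive and 8.08 to 8.27 in clock-negative cells. Markers of sebocytes, the lipid-filled cells of the sebaceous gland, had a mean of 7.10 to 7.18 in clock-positive and 7.13 to 7.17 in clock-negative cells. Of 7 tested, 3 were called higher, Mgst1 (0.68, and 0.57 after cyclic loess), Plin2 (0.46, and 0.23) and Fabp4 (0.24, and 0.02). The 1 called lower was Plin5 (−0.32, and −0.19). Awat1, Awat2, Dgat2l6 and Mc5r of the same list averaged between 5.12 and 6.23 in both sorts, below the dim limit of 6.27 for that set. Adipocyte markers were called higher in 1 and lower in 3 of 4, and fibroblast markers higher in 1 and lower in 1 of 3. After cyclic loess the counts were the same for bulge, endothelial, differentiated keratinocyte, T cell and myeloid markers, and became 3 higher and 2 lower for basal keratinocytes, 2 lower for melanocytes, 2 higher and 1 lower for sebocytes, and 1 lower each for adipocytes and fibroblasts. Fewer cells of a type and less RNA per cell cannot be told apart in such pools, and the part of these cell types in the results below was not tested.

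In bulge cells, most sterol and fatty acid synthesis genes had higher values in the clock-positive sort as the values were deposited, led by the fatty acid enzymes Fads1 (1.72-fold) and Elovl5 (1.67-fold) and by the sterol enzymes Cyp51 (1.38-fold) and Lss and Mvd (1.33-fold each). All 33 genes passed the filter on dim genes, and 23 of them were called higher and 0 lower at an adjusted p under 0.05 with limma. Over all 13956 genes tested, 45.2% were called higher and 18.3% lower, so higher calls outnumbered lower ones across the array as well. At an unadjusted p under 0.05 there were also 23 of the 33, against 67.8% of all genes. The median log2 change of the 33 genes was 0.23, beside 0.15 over all genes. In 23 of the 33 every clock-positive value lay above every clock-negative value, and so did 50.1% of all genes.

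The count depended on how the 6 arrays were scaled to each other. After cyclic loess, which removes intensity-dependent differences between arrays, 6 of the 33 genes were called higher and 5 lower, against 25.3% and 15.8% of all genes. The median change of the 33 was then 0.07, beside 0.04 over all genes, and the groups did not overlap for 11 genes higher in clock-positive cells and 7 lower, against 32.3% and 21.7% of all genes. Quantile normalization gave 7 higher and 1 lower with a median of 0.13 (0.07 over all genes), and centring each array on its median gave 28 higher and 0 lower with a median of 0.37 (0.29 over all genes). Fads1, Elovl5, Insig1, Cyp51, Lss and Scd2 were called higher under all 4 scalings, as were 22.9% of all genes, and 0 of the 33 were called lower under all 4, against 7.47% of all genes. Relative to the median of all genes, the change as deposited and after cyclic loess was 0.64 and 0.67 for Fads1, 0.60 and 0.49 for Elovl5, 0.23 and 0.43 for Insig1, 0.31 and 0.24 for Cyp51, 0.27 and 0.23 for Lss, and 0.25 and 0.14 for Scd2. After cyclic loess the share of the 33 called higher or lower lay near or below that of all genes, and nothing particular to the list is read from it.

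**Figure D1:**
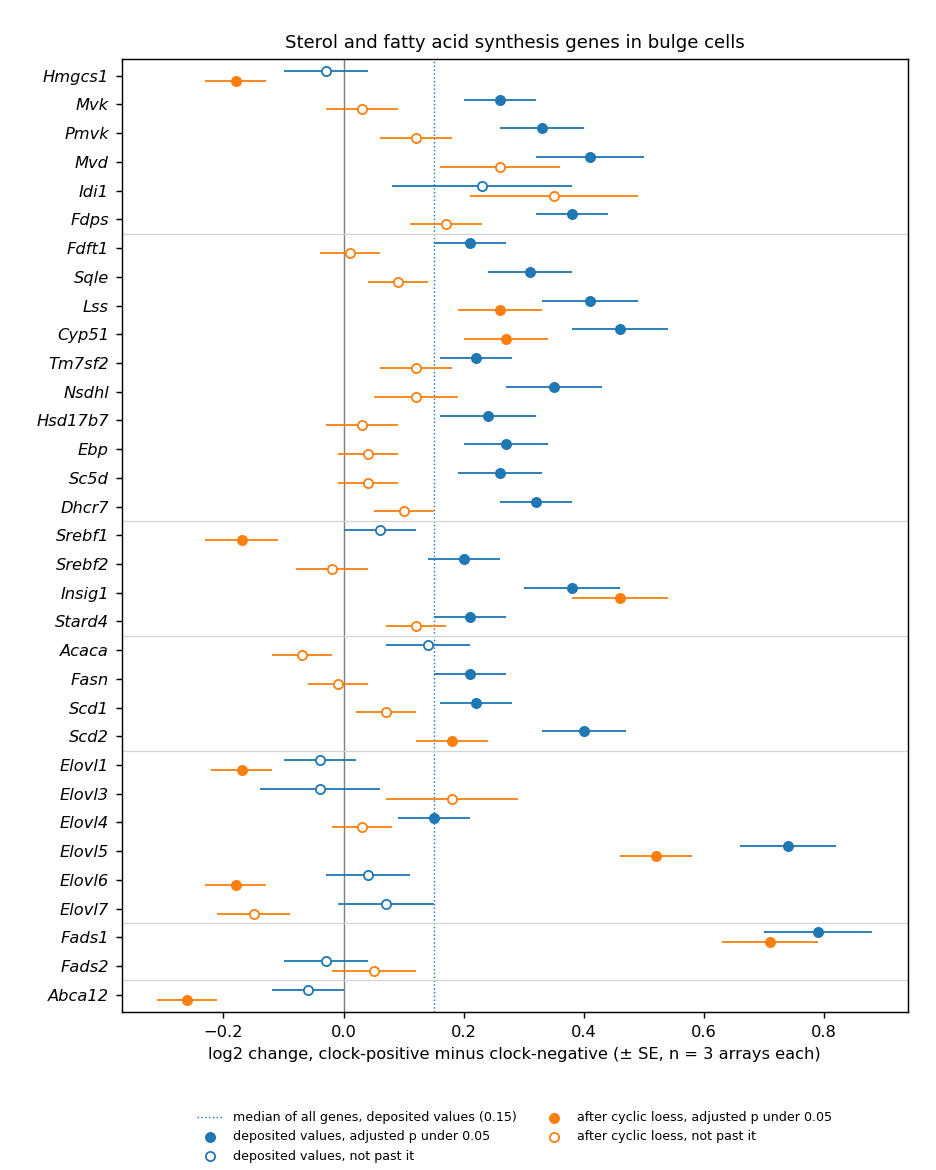
Log2 change between clock-positive and clock-negative bulge cells for each of the 33 genes, grouped by role from the mevalonate pathway at the top to the lipid transporter Abca12 at the bottom. Points are limma estimates with their SE (3 arrays per group) from deposited values and after cyclic loess, filled where the adjusted p is under 0.05; 28 of the 33 blue points sit right of 0 and the orange points lie around it, 24 to the right, with Fads1 and Elovl5 far right on both scales.

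**Figure D2:**
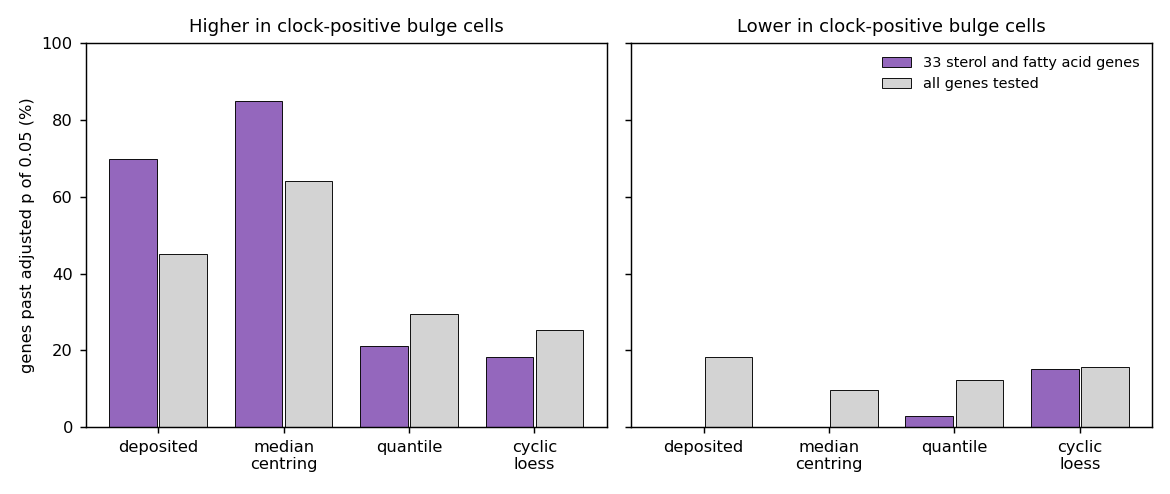
Share of genes called higher or lower in clock-positive bulge cells (adjusted p under 0.05) under 4 scalings, as bars from 0%, for the 33 sterol and fatty acid genes and for all 13956 genes tested. The 33 genes stand above all genes for higher calls with deposited values (69.7% and 45.2%) and with median centring (84.8% and 64.0%), and below them after quantile normalization (21.2% and 29.5%) and cyclic loess (18.2% and 25.3%).

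In the mevalonate pathway, 4 of 6 genes were called higher as deposited (median log2 change 0.29), and after cyclic loess 0 were called higher and 1 lower (median 0.14). Over all genes 45.2% were called higher as deposited (median 0.15). After cyclic loess 25.3% were called higher and 15.8% lower (median 0.04). Mvd, the decarboxylase that ends the mevalonate steps, read 8.28, 8.22 and 8.34 in clock-positive cells and 7.72, 8.07 and 7.82 in clock-negative cells. Fdps, which joins isoprenoid units into farnesyl diphosphate, read 9.85, 9.90 and 9.93 in clock-positive cells, against 9.55, 9.56 and 9.44 in clock-negative cells. Neither gene overlapped between the sorts, and the changes were 0.41 ± 0.09 SE for Mvd (adjusted p = 0.00307) and 0.38 ± 0.06 for Fdps (adjusted p = 0.000753). After cyclic loess they stood at 0.26 (adjusted p = 0.0589) and 0.17 (adjusted p = 0.0636). The kinases that phosphorylate mevalonate in turn, Mvk and Pmvk, also did not overlap. Mvk had 9.34, 9.38 and 9.38 in clock-positive cells and 9.14, 9.13 and 9.06 in clock-negative cells. Pmvk had 8.69, 8.81 and 8.74 in clock-positive cells and 8.51, 8.35 and 8.41 in clock-negative cells. Their changes of 0.26 and 0.33 became 0.03 and 0.12 after cyclic loess, with adjusted p = 0.704 and 0.121.

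Hmgcs1, the synthase that makes HMG-CoA at the head of the pathway, was not among those called. It read 10.78, 10.80 and 10.80 in clock-positive cells and 10.94, 10.74 and 10.78 in clock-negative cells, which overlap, with a change of −0.03 ± 0.07 SE. After cyclic loess the values were 10.69, 10.74 and 10.73 in clock-positive cells, all below the 10.98, 10.87 and 10.86 in clock-negative cells, and Hmgcs1 was called lower (−0.18 ± 0.05 SE, adjusted p = 0.0253). That call was lost without any 1 of the 3 clock-positive arrays or without clock-negative array 1 (adjusted p between 0.0571 and 0.0829). Idi1, the isomerase of isopentenyl diphosphate, had the widest spread of the 33, with 6.65, 6.99 and 7.25 in clock-positive cells and 6.50, 6.97 and 6.75 in clock-negative cells, and was not called (0.23 ± 0.15 SE, adjusted p = 0.197).

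All 10 genes of the steps between squalene and cholesterol were called higher as deposited, with changes between 0.21 and 0.46 and a median of 0.29. Over all genes 45.2% were called higher there, with a median of 0.15. After cyclic loess 2 of the 10, Lss and Cyp51, were called higher and 0 lower, with a median of 0.09 and a range of 0.01 to 0.27. Over all genes 25.3% were called higher on that scale, with a median of 0.04. Lss, which folds oxidosqualene into lanosterol, read 8.48, 8.24 and 8.22 in clock-positive cells, against 7.98, 7.84 and 7.88 in clock-negative cells. Cyp51, which demethylates lanosterol, read 8.61, 8.73 and 8.53 in clock-positive cells, against 8.30, 8.03 and 8.16 in clock-negative cells. For both, the lowest clock-positive array stood above the highest clock-negative one. Lss changed by 0.41 ± 0.08 SE (adjusted p = 0.00168) and by 0.26 ± 0.07 after cyclic loess (adjusted p = 0.0199); without clock-positive array 1, which held its highest value, the estimate after cyclic loess was 0.18 (adjusted p = 0.0507), and it also missed the threshold without clock-negative array 2 (0.0508) or 3 (0.06). Cyp51 changed by 0.46 ± 0.08 SE (adjusted p = 0.00109) and by 0.27 ± 0.07 after cyclic loess (adjusted p = 0.0149), which became 0.21 (adjusted p = 0.0538) without clock-positive array 2.

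The other 8 genes of these steps separated the sorts on deposited values by smaller amounts. Every clock-positive value lay above every clock-negative value in 50.1% of all genes too. Fdft1, squalene synthase, read 10.02, 10.02 and 10.00 in clock-positive cells and 9.84, 9.74 and 9.83 in clock-negative cells. Sqle, the squalene epoxidase, read 9.58, 9.55 and 9.51 in clock-positive cells and 9.32, 9.12 and 9.26 in clock-negative cells. Both are early and rate-setting steps of the branch that serves sterols alone. Tm7sf2, a sterol reductase, had 7.93, 7.87 and 7.97 in clock-positive cells and 7.72, 7.76 and 7.64 in clock-negative cells. Nsdhl, a dehydrogenase of sterol demethylation, had 8.95, 9.07 and 9.10 in clock-positive cells and 8.87, 8.60 and 8.61 in clock-negative cells. In Nsdhl clock-negative array 1 came close to the lowest clock-positive array. Hsd17b7, which works beside Nsdhl, had 8.60, 8.64 and 8.72 in clock-positive cells and 8.56, 8.28 and 8.40 in clock-negative cells. Ebp, a sterol isomerase, had 9.43, 9.42 and 9.41 in clock-positive cells and 9.28, 9.03 and 9.14 in clock-negative cells. Clock-negative array 1 was the highest of its group in each of these genes but Tm7sf2. Sc5d, a sterol desaturase, had 9.75, 9.65 and 9.69 in clock-positive cells and 9.56, 9.33 and 9.41 in clock-negative cells. Dhcr7, the reductase that completes cholesterol in one of its branches, had 9.50, 9.57 and 9.61 in clock-positive cells and 9.30, 9.20 and 9.21 in clock-negative cells. After cyclic loess the estimates for these 8 genes were 0.01 to 0.12, with adjusted p between 0.112 and 0.86. Hsd17b7 lost its deposited call without clock-negative array 2 (0.17, adjusted p = 0.0757) or 3, or without clock-positive array 2 or 3 (adjusted p up to 0.0903), and Tm7sf2 lost it without clock-negative array 3 (adjusted p = 0.0572) or clock-positive array 3 (adjusted p = 0.0594).

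Among the regulators and the sterol carrier, 3 of 4 were called higher as deposited, against 45.2% of all genes. Insig1, itself a target of SREBP and a brake on the pathway, read 7.26, 7.15 and 7.27 in clock-positive cells and 6.98, 6.75 and 6.81 in clock-negative cells. Its change of 0.38 ± 0.08 SE (adjusted p = 0.00198) became 0.46 ± 0.08 after cyclic loess (adjusted p = 0.00282), and the call held without each of the 6 arrays on both scales. Srebf2 read 9.43, 9.51 and 9.49 in clock-positive cells and 9.31, 9.26 and 9.24 in clock-negative cells. Stard4, which carries cholesterol between membranes, read 7.80, 7.92 and 7.83 in clock-positive cells and 7.68, 7.65 and 7.59 in clock-negative cells. The deposited changes of 0.20 for Srebf2 and 0.21 for Stard4 became −0.02 (adjusted p = 0.802) and 0.12 (adjusted p = 0.0938) after cyclic loess. Srebf2 was no longer called on deposited values without clock-positive array 2 (adjusted p = 0.0579) or 3 (0.0508), nor Stard4 without clock-positive array 2 (0.0741) or clock-negative array 3 (0.0628). Srebf1 overlapped on deposited values, with 9.06, 9.07 and 9.09 in clock-positive cells and 9.07, 9.03 and 8.95 in clock-negative cells. It was called lower after cyclic loess (−0.17 ± 0.06 SE, adjusted p = 0.0419), where 8.93, 8.97 and 8.98 in clock-positive cells lay below 9.11, 9.22 and 9.06 in clock-negative cells; the call was lost without any 1 array other than clock-negative array 3 (−0.12 to −0.18, adjusted p between 0.0539 and 0.121).

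In the synthesis of saturated and monounsaturated fatty acids, 3 of 4 genes were called higher as deposited and 1 after cyclic loess. Over all genes the shares were 45.2% and 25.3%. Scd2, a stearoyl-CoA desaturase, read 8.95, 8.94 and 9.07 in clock-positive cells and 8.67, 8.50 and 8.59 in clock-negative cells, a change of 0.40 ± 0.07 SE (adjusted p = 0.00098). Its change after cyclic loess was 0.18 ± 0.06 (adjusted p = 0.0327), and it was not called there without clock-negative array 2 or 3 or clock-positive array 2 or 3, with estimates of 0.13 to 0.19 and adjusted p between 0.0573 and 0.122. Scd1, the desaturase of the sebaceous gland, read 11.06, 10.98 and 11.05 in clock-positive cells and 10.87, 10.74 and 10.84 in clock-negative cells. Fasn, fatty acid synthase, read 9.68, 9.67 and 9.68 in clock-positive cells and 9.51, 9.43 and 9.46 in clock-negative cells. Both separated the sorts on deposited values (0.22 and 0.21), and after cyclic loess Scd1 stood at 0.07 and Fasn at −0.01, with neither called; without clock-positive array 1 or 3, the deposited Scd1 call missed the threshold (adjusted p = 0.0533 and 0.0508). Acaca, acetyl-CoA carboxylase, was not called on either scale (0.14 and −0.07). Scd1 and Scd2 are close paralogs, and whether a probe for one picks up the other was not tested.

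Elongases split, with 2 of 6 called higher as deposited, and 1 higher and 2 lower after cyclic loess. Over all genes 45.2% were called higher as deposited, and 25.3% higher and 15.8% lower after cyclic loess. Elovl5, which lengthens polyunsaturated fatty acids, read 9.85, 9.81 and 9.94 in clock-positive cells and 9.20, 8.98 and 9.19 in clock-negative cells. Every clock-positive array lay well above every clock-negative one, and the change was 0.74 ± 0.08 SE (adjusted p = 3.63e-05) and 0.52 ± 0.06 after cyclic loess (adjusted p = 0.000251). Elovl4 read 11.35, 11.28 and 11.31 in clock-positive cells and 11.19, 11.13 and 11.16 in clock-negative cells. Its call at 0.15 (adjusted p = 0.0418) was lost without clock-positive array 1, 2 or 3 or clock-negative array 2 or 3 (adjusted p between 0.0763 and 0.146), and after cyclic loess the change was 0.03. Elovl6, which turns palmitate into stearate, read 9.41, 9.45 and 9.42 in clock-positive cells and 9.45, 9.28 and 9.43 in clock-negative cells. Elovl1, which builds very long saturated chains, read 11.14, 11.18 and 11.20 in clock-positive cells and 11.23, 11.23 and 11.17 in clock-negative cells. Both overlapped as deposited, and both were called lower after cyclic loess, Elovl6 at −0.18 ± 0.05 SE (adjusted p = 0.0201) and Elovl1 at −0.17 ± 0.05 (adjusted p = 0.0318). Without any 1 clock-positive array or clock-negative array 2 the Elovl1 call was lost (adjusted p between 0.0586 and 0.109), and without clock-positive array 1 or 3 or clock-negative array 3 the Elovl6 call was lost (adjusted p between 0.0637 and 0.0705). Elovl3, of sebaceous gland and brown fat, and Elovl7 were not called on either scale.

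The desaturases of polyunsaturated fatty acids differed from each other. Fads1, which makes arachidonic acid, read 8.10, 8.09 and 8.12 in clock-positive cells and 7.52, 7.22 and 7.21 in clock-negative cells. It had the largest change of the 33 genes, 0.79 ± 0.09 SE (adjusted p = 5.74e-05) and 0.71 ± 0.08 after cyclic loess (adjusted p = 0.000252), and ranked 286 among the 13956 genes from the most raised downward, or 287 after cyclic loess. Elovl5 ranked 349 and 655 on the same scales, and both calls held without each of the 6 arrays. Fads2, which acts before Fads1 and also lies on chromosome 19, lay between 6.94 and 7.18 in clock-positive cells and between 7.06 and 7.07 in clock-negative cells, a change of −0.03 ± 0.07 SE. Abca12, the lipid transporter, read 9.74, 9.77 and 9.76 in clock-positive cells and 9.88, 9.72 and 9.83 in clock-negative cells, which overlap. After cyclic loess its values were 9.62, 9.68 and 9.66 in clock-positive cells and 9.92, 9.90 and 9.93 in clock-negative cells, and it was called lower (−0.26 ± 0.05 SE, adjusted p = 0.00308), also without each of the 6 arrays; it was called lower after quantile normalization too (−0.21, adjusted p = 0.0115), and not with median centring (0.09).

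**Figure D3:**
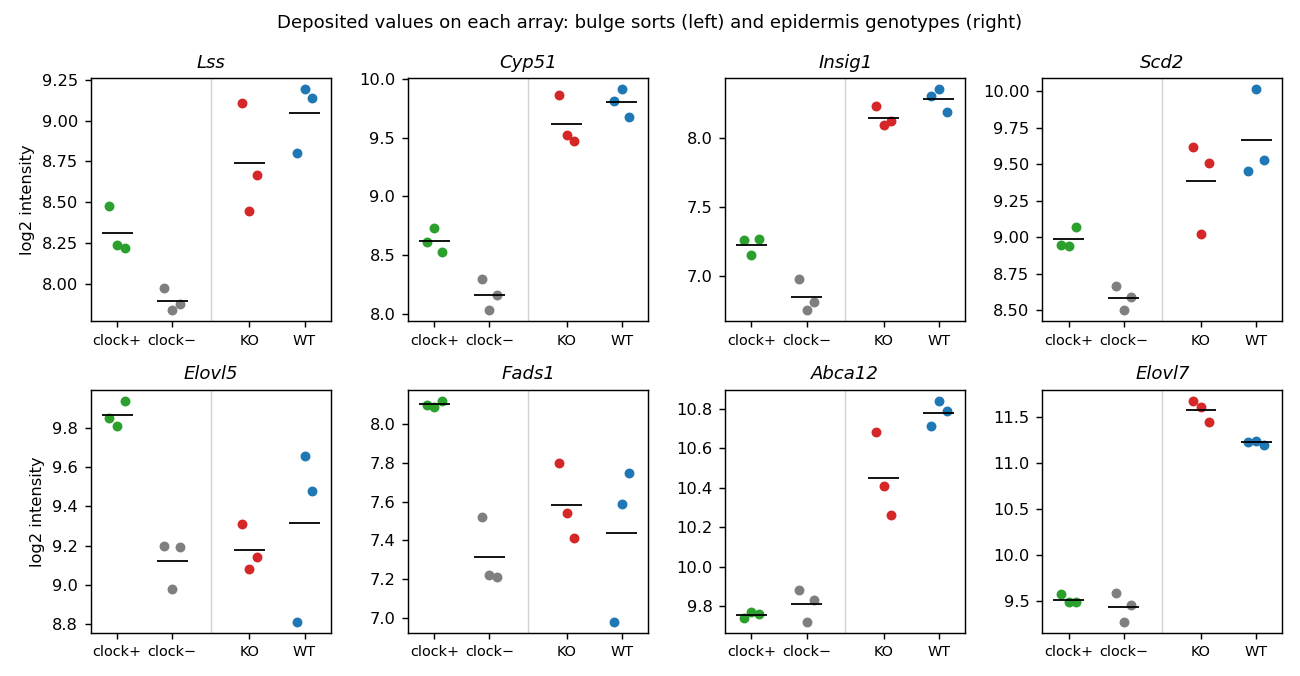
Deposited log2 intensity on each array (points) with group means (lines) for 8 of the genes: clock-positive and clock-negative bulge cells left of the divider, Bmal1 KO and WT epidermis right of it, each panel with its own axis; levels left and right of a divider come from sets normalized apart. The sorts do not overlap in the first 6 panels and do in Abca12 and Elovl7, while KO and WT do not overlap in Abca12 and Elovl7.

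Of 24 other listed genes of sterol handling, 16 had a probe set of their own and 15 were tested. As deposited 8 were called higher and 1 lower in clock-positive cells, and after cyclic loess 3 higher and 1 lower. Over all genes 45.2% were called higher and 18.3% lower as deposited, and 25.3% and 15.8% after cyclic loess. Abca1, which exports cholesterol, read 9.52, 9.52 and 9.53 in clock-positive cells and 8.93, 8.75 and 8.80 in clock-negative cells (0.69 ± 0.07 SE, and 0.47 after cyclic loess). Npc2, which hands cholesterol out of the lysosome, changed by 0.61 (0.40 after cyclic loess), and Scarb1, the receptor for high-density lipoprotein, by 0.43 (0.26). These 3 genes were called on both scales. Msmo1, the sterol oxidase that works with Nsdhl and Hsd17b7, was called as deposited (0.28) and not after cyclic loess (0.05, adjusted p = 0.398). Of 26 further fatty acid genes, 17 were tested, with 6 called higher and 2 lower as deposited and 3 higher and 3 lower after cyclic loess. The all-gene shares above apply to these counts too. Slc25a1, which exports citrate from mitochondria for lipid synthesis, rose by 0.43 (0.21 after cyclic loess), and Ppard, a nuclear receptor for fatty acids, rose by 0.41 (0.18). Acly, which splits that citrate to acetyl-CoA, rose by 0.23 as deposited and stood at 0.05 after cyclic loess (adjusted p = 0.383). Fads6, named after the desaturase family, fell by 0.26 as deposited and by 0.24 after cyclic loess.

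In basal epidermis, 0 of the 31 genes tested was called between Bmal1 KO and WT cells by limma, and the same held after cyclic loess. Elovl3 and Fads2 fell below the filter on dim genes. Over all 13956 genes, 0.193% were called in either direction as deposited and 0.609% after cyclic loess. The median change of the 31 was −0.07, beside −0.01 over all genes, with SEs from 0.10 to 0.21, against 0.06 to 0.15 in the bulge comparison. At an unadjusted p under 0.05 there were 3 of 31, Fdft1, Elovl7 and Abca12, against 7.96% of all genes, and 3 of 31 after cyclic loess, against 13.4%. The groups did not overlap for 4 genes, Elovl7 with higher values in KO and Fdft1, Stard4 and Abca12 with lower ones, against 12.7% of all genes.

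Values of the genes at the ends of the range were as follows. Elovl7, an elongase of long saturated chains, read 11.67, 11.60 and 11.44 in KO cells, all above 11.23, 11.24 and 11.19 in WT cells (0.34 ± 0.10 SE, adjusted p = 0.355, and 0.33 with adjusted p = 0.124 after cyclic loess). Abca12 read 10.68, 10.41 and 10.26 in KO cells, all below 10.71, 10.84 and 10.79 in WT cells (−0.33 ± 0.13 SE, adjusted p = 0.528). In Abca12 KO array 1 lay just under the lowest WT array. Fdft1 read 11.94, 11.72 and 11.86 in KO cells and 12.14, 12.11 and 12 in WT cells (−0.24 ± 0.10 SE, adjusted p = 0.62). Stard4 read 9.14, 8.86 and 9.04 in KO cells and 9.15, 9.27 and 9.18 in WT cells (−0.18 ± 0.11 SE, adjusted p = 0.809). Lss and Scd2 had lower means in KO (−0.30 and −0.28) and Hsd17b7 a higher one (0.26), each with overlapping groups and an adjusted p of 0.751 or more. The 2 genes that led in bulge cells overlapped widely here. Fads1 read 7.80, 7.54 and 7.41 in KO cells and 6.98, 7.59 and 7.75 in WT cells (0.15 ± 0.20 SE), and Elovl5 read 9.31, 9.08 and 9.14 in KO cells and 8.81, 9.66 and 9.48 in WT cells (−0.14 ± 0.21 SE).

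**Figure D4:**
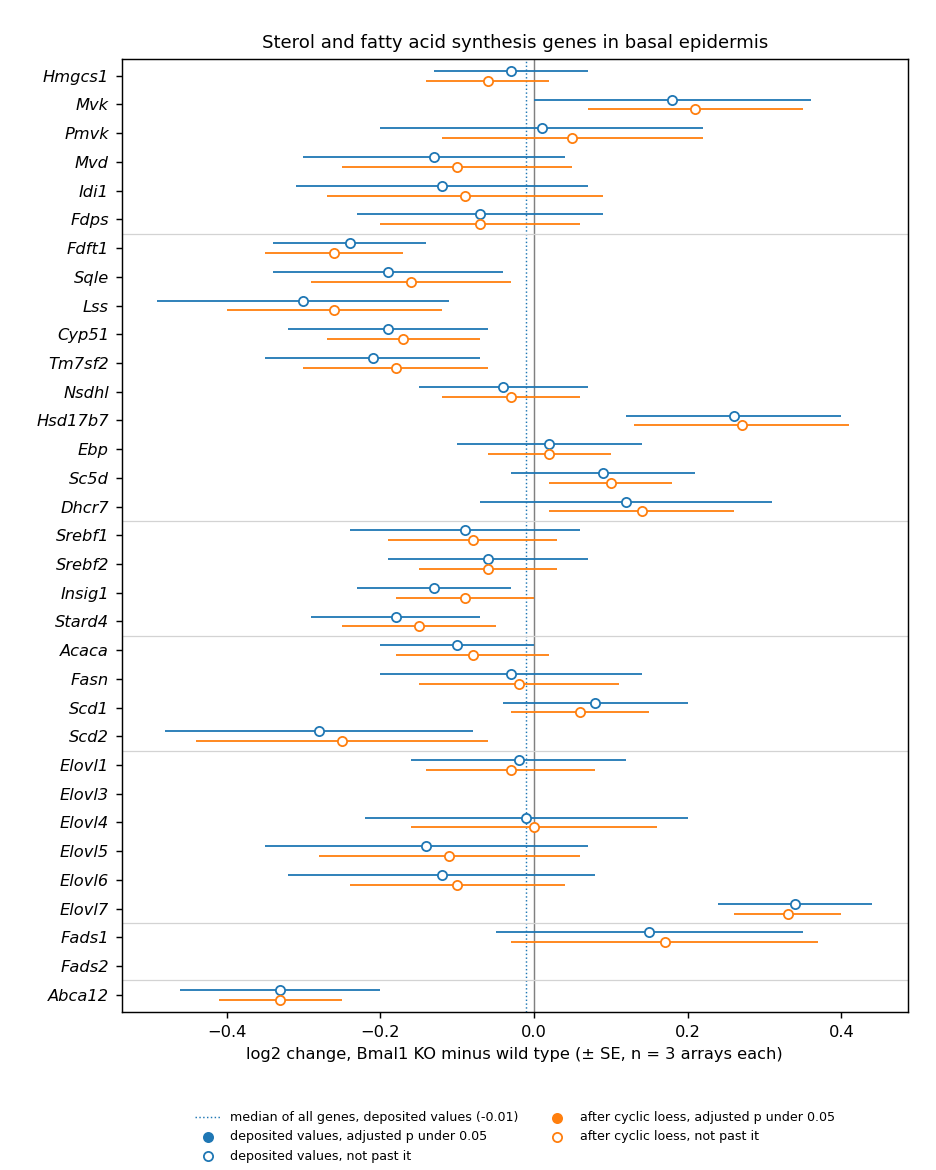
Log2 change between Bmal1 KO and WT basal epidermis for the genes tested, in the same order by role, with SE (3 arrays per group), from deposited values and after cyclic loess; rows of Elovl3 and Fads2 are empty because both were dim. All points are open, as none passed the adjusted p of 0.05, with Elovl7 at 0.34 and Abca12 at −0.33 at the ends.

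WT array 1 stood apart from the other WT arrays in these genes and in markers of other cells. It held the lowest of the 6 values for 16 of the 33 genes, and KO array 2 held the lowest for 11. The mean of the 33 genes was 9.77, 9.49 and 9.55 on the KO arrays and 9.47, 9.76 and 9.75 on the WT arrays, so each genotype had an array near the other's level. Markers of differentiated keratinocytes averaged 9.12, 9.35 and 9.24 in KO and 9.36, 10.16 and 10.15 in WT, and T cell markers 7.94, 7.99 and 7.94 in KO and 8.23, 9.28 and 9.47 in WT. Langerhans and myeloid markers averaged 6.93 to 7.10 in KO and 7.28 to 8.67 in WT, and basal keratinocyte markers 12.56 to 12.60 in KO and 12.52 to 12.62 in WT. Sebocyte markers averaged 7.23 to 7.34 in KO and 7.05 to 7.43 in WT, with 0 of 5 tested called. Of that list, Awat1, Awat2, Dgat2l6 and Mc5r all averaged below the dim limit of 6.83 in both genotypes. On deposited values Thy1, a gene of T cells and other cells, was the only gene of the marker lists called, higher in KO (1.19 ± 0.12 SE, adjusted p = 0.0155). The other 3 T cell markers tested had lower means in KO, Cd3g at −2.66 (adjusted p = 0.0663, and called after cyclic loess at −2.62 with adjusted p = 0.0476), Cd3e at −1.33 and Cd7 at −1.22. The part of these cells in the epidermis values was not tested. Without WT array 1 the median change of the 31 genes was −0.18, beside −0.06 over all genes, and 0 was called. A negative change was found there in 28 of 31, and in 9365 of all 13956 genes. After cyclic loess the median without that array was −0.11, beside −0.01 over all genes. On that scale 24 of 31 were negative, and 7461 of all 13956 genes. Leaving out each of the other 5 arrays in turn gave medians between −0.15 (without KO array 1) and 0 (without WT array 2), with −0.03 without KO array 2. Negative changes numbered 26 of 31 without KO array 1, against 8900 of all 13956 genes. They numbered 16 of 31 without WT array 2, against 7039 of all 13956 genes.

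**Figure D5:**
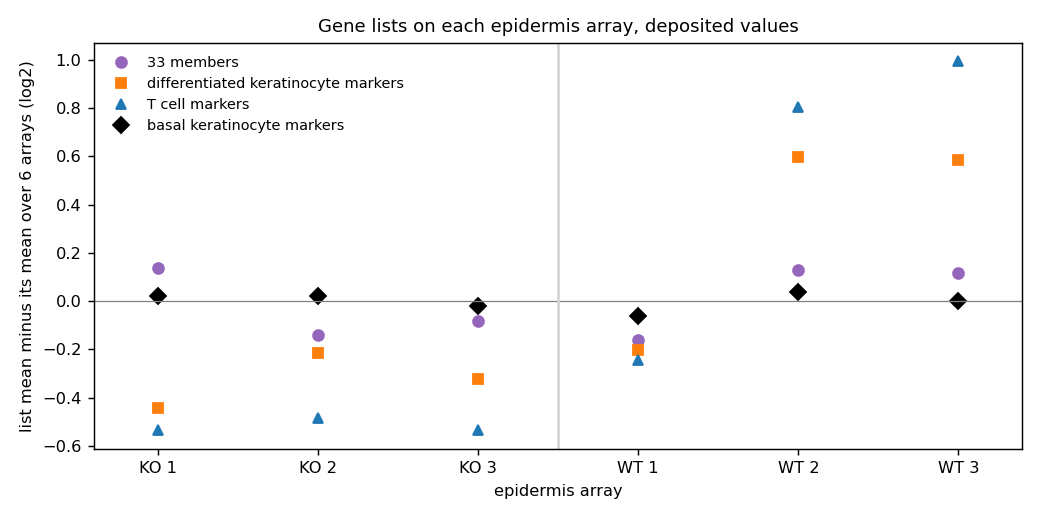
Mean of 4 gene lists on each epidermis array, as the difference from the list's own mean over the 6 arrays (log2), for KO arrays 1 to 3 and then WT arrays 1 to 3. WT array 1 lies below WT arrays 2 and 3 for the 33 genes, for differentiated keratinocyte markers and for T cell markers, while basal keratinocyte markers stay near 0 on all arrays.

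Among the other sterol genes in the epidermis, 0 of 15 tested was called by limma, with 1 at an unadjusted p under 0.05. Over all genes the shares were 0.193% and 7.96%. Vldlr, a lipoprotein receptor, had 8.06, 7.74 and 7.89 in KO cells and 7.47, 7.33 and 7.32 in WT cells, which do not overlap (0.52 ± 0.12 SE, adjusted p = 0.196). Npc1, Msmo1 and Ch25h had estimates of 0.26, −0.14 and −0.23, with adjusted p of 0.912 or more. Of the other fatty acid genes, 0 of 20 was called and 0 had an unadjusted p under 0.05, and Slc25a1 had the smallest p (0.39 ± 0.18 SE, adjusted p = 0.67), with 10.47, 10.30 and 10.25 in KO and 9.54, 10.12 and 10.20 in WT, which do not overlap, followed by Hacd1 (0.19), Acsl5 (0.16) and Fads3 (−0.18).

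Finally, the changes of the 2 sets were set against each other, as the change of clock-positive over clock-negative cells minus the change of WT over KO cells. The question is whether a bright against a dim Per1 reporter goes with the same change as WT against KO. These 2 contrasts are unlike in clock genes: Nr1d1 changed by 0.08 between the sorts (adjusted p = 0.298) and by −3.98 in KO over WT cells. Between the sets, skin compartment, mouse age and the number of mice per pool differ too, and their effects cannot be told apart from that of the clock contrast. Of the 31 genes tested in both, 2 were called as having a higher difference and 0 a lower one, against 16.7% of 13100 genes in either direction; 9 of 31 had an unadjusted p under 0.05, against 37.3% of all genes. Fads1 had a difference of 0.93 ± 0.23 SE (adjusted p = 0.0178), from a change of 0.79 in clock-positive over clock-negative cells and one of 0.15 in KO over WT cells, which the contrast adds because it subtracts WT over KO. Elovl7 had a difference of 0.42 ± 0.13 SE (adjusted p = 0.0479), with a bulge change of 0.07 and a change of 0.34 in KO over WT cells. The Elovl7 call was lost without any of 10 of the 12 arrays in turn (adjusted p between 0.0532 and 0.115) and after cyclic loess (0.19, adjusted p = 0.159), and Fads1 lost it without clock-negative array 2 (adjusted p = 0.0582) or 3 (0.0508). After cyclic loess Fads1 stood at 0.88 (adjusted p = 0.0223) and Abca12 was called lower (−0.59 ± 0.09 SE, adjusted p = 0.000736), 2 of 31 against 20.0% of all genes. Abca12 was lower in clock-positive than in clock-negative cells on that scale (−0.26) and lower in KO than in WT cells (−0.33).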

How the data were processed

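The members and lists were chosen with earlier results of these data known. Total RNA of sorted cells was amplified with a whole-transcriptome kit and hybridised to Affymetrix arrays, per the labels' protocols. The authors deposited log2 intensities, and the submitters' processing notes name RMA; its settings and the build are not given in the sources used here. Values exist for 34760 probe sets in the bulge set and 28853 in the epidermis set, which points to separate normalization, so levels were tested within a set. Of 35512 probe sets, 21789 carry 1 symbol, 1621 several and 12102 none. All 36 probe sets of the 33 genes matched RefSeq (GRCm38.p6) with symbols unchanged. For a symbol with several probe sets, one measured on all 12 arrays was preferred, then the highest mean. The lowest 30% of genes by mean were left out as dim in each set (13956 kept).

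The fits used lmFit and eBayes without trend of limma 3.58.1 in R 4.3.3 on 3 against 3 arrays, and the difference of changes on all 12, over the 13100 genes kept in both sets; tests were two-sided, with Benjamini-Hochberg adjustment over all genes tested. Arrays have no read depth, and their number limits the precision. Scripts were tested on simulated data. Named are every member, with values on every array for those called in a comparison, and up to 4 genes with the smallest p of each of the other lists: other sterol genes, other fatty acid genes, barrier lipid genes, clock genes and the markers of bulge stem cells, basal and differentiated keratinocytes, sebocytes, adipocytes, T cells, Langerhans and myeloid cells, melanocytes, fibroblasts and endothelium; marker lists are given as counts and array means. Alternatives were cyclic loess, quantile normalization, median centring, other filters on dim genes, eBayes with trend and robust, all 12 arrays in 1 fit, averaged probe sets, the replicate number as a block and leaving out each array. Fitting each probe set on its own, and cyclic loess combined with the block, no filter or a left-out array, were added after seeing the data. Motifs were searched in the promoter table with Python 3.11.15.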

Additional observations from a re-analysis of the deposited data

Results flagged for a closer look

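Fads1 was called by limma as changing differently in the 2 sets, as were 16.7% of all genes in either direction. Its difference was 0.93 ± 0.23 SE on the log2 scale between the change of clock-positive over clock-negative bulge cells and that of WT over KO epidermis (adjusted p = 0.0178). That call was lost without clock-negative array 2 (adjusted p = 0.0582) or 3 (0.0508), and with the replicate number as a block. On the deposited values clock-positive arrays lay above clock-negative arrays in 3 of 3, as in 50.1% of all genes, while KO and WT arrays overlapped. Elovl7 was also called, with a difference of 0.42 ± 0.13 SE (adjusted p = 0.0479). Its sorts overlapped in the bulge, and all 3 KO arrays lay above all 3 WT arrays in the epidermis. It was not called after cyclic loess (0.19, adjusted p = 0.159), with the block or without most single arrays. The estimates ran from 0.70 to 1.09 for Fads1 and from 0.34 to 0.49 for Elovl7 when 1 array was left out.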

How the results depend on the processing

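The number of the 33 genes called higher in clock-positive bulge cells was 23 as deposited. It was 6 after cyclic loess, 7 after quantile normalization and 9 with all 12 arrays in 1 fit. Over all genes the shares in these 4 fits were 45.2%, 25.3%, 29.5% and 25.0%. Without the filter on dim genes, with trend and robust moderation, with probe sets averaged and with median centring it was 23 to 28. Over all genes these fits called 31.5% to 64.0% higher. With the lowest 50% left out, 29 of the genes were tested and 22 called higher, against 59.7% of all genes. With each probe set fitted on its own, 25 of the 36 probe sets were called higher. It ranged from 18 to 24 when 1 array was left out. The number called lower, 0 as deposited, was 5 after cyclic loess and 1 after quantile normalization. Over all genes the shares called lower were 18.3%, 15.8% and 12.2%. After cyclic loess, leaving out 1 array gave 4 to 6 higher and 1 to 4 lower. Over all genes those fits called 19.8% to 27.1% higher and 11.2% to 17.1% lower. Among the 33 there was 1 lower without clock-positive array 1 or 3, 2 without clock-positive array 2 and 3 without clock-negative array 1. Signs of the bulge change turned under cyclic loess for Srebf1 (−0.17), Srebf2 (−0.02), Acaca (−0.07), Fasn (−0.01), Elovl6 (−0.18) and Elovl7 (−0.15), and to positive for Elovl3 (0.18) and Fads2 (0.05). In the epidermis 0 was called in either direction under every alternative run. For the difference of changes, 2 higher calls became 1 after cyclic loess, 1 after quantile normalization, 5 with median centring and 1 without the filter, and 0 to 3 when 1 array was left out; the 0 lower calls became 1 after cyclic loess and 1 after quantile normalization, and 0 to 1 when 1 array was left out. Over all genes the higher calls of that difference were 10.7% as deposited, 12.3% after cyclic loess and 10.2% after quantile normalization. They were 20.0% with median centring and 6.89% without the filter. The cause of these shifts in the counts was not tested.

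Same-numbered arrays did not all deviate together (correlations of 0.24, 0.26 and −0.06 in the bulge and −0.44, 0.04 and −0.52 in the epidermis). Whether the numbers pair the samples cannot be told from these values, and the main fits used no pairing. With the replicate number as a block, 24 of the 33 genes were called higher and 0 lower in the bulge. Of all 13956 genes, 6564 were called higher and 2787 lower in that fit. After cyclic loess the block gave 7 higher and 4 lower of the 33, against 3624 and 2297 of all 13956 genes. In the epidermis 0 of the 31 tested was called, against 0 higher and 3 lower of all 13956 genes. In the difference of changes 0 was called, against 371 higher and 196 lower of all 13100 genes.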

Other observations

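Barrier lipid genes, which make and process ceramides of the outer epidermis, split in bulge cells. Of 25 listed, 22 were tested, with 7 called higher and 4 lower in clock-positive cells as deposited. After cyclic loess 4 were called higher and 6 lower. Over all genes 45.2% were called higher and 18.3% lower as deposited, and 25.3% and 15.8% after cyclic loess. Degs1, Cers2 and Cers4, enzymes of ceramide synthesis, rose by 0.71, 0.64 and 0.62, and by 0.52, 0.46 and 0.43 after cyclic loess. Alox12b, a lipoxygenase of the cornified layer, fell by 0.59, or by 0.76 after cyclic loess, with 8.01, 7.83 and 7.96 in clock-positive cells and 8.64, 8.43 and 8.49 in clock-negative cells. Markers of differentiated keratinocytes were also lower in clock-positive cells, and their part in this was not tested. In the epidermis 0 of 21 barrier lipid genes was called by limma, with 4 at an unadjusted p under 0.05. Over all genes the shares were 0.193% and 7.96%. Aloxe3, another lipoxygenase, had 7.37, 7.40 and 6.77 in KO cells and 7.84, 8.53 and 8.66 in WT cells, which do not overlap (−1.16 ± 0.25 SE, adjusted p = 0.176), and Acer1, Lipm and Sdr9c7 had estimates of −0.48, −0.47 and −0.58 with adjusted p of 0.414 or more.

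The second probe set of Idi1 behaved differently from the one used above. It read 6.62, 6.66 and 6.61 in clock-positive cells and 6.36, 6.17 and 6.12 in clock-negative cells, and fitted on its own it was called higher as deposited (0.41 ± 0.07 SE, adjusted p = 0.00135) and after cyclic loess (0.62 ± 0.08, adjusted p = 0.000821), where the one used gave adjusted p = 0.211 and 0.0811. Both probe sets of Fdft1 were called higher as deposited (0.21 and 0.19) and neither after cyclic loess, and neither of Acaca was called on either scale.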
